A study of Mytilus galloprovincialis with 16 samples.

Results

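Transcript levels in the digestive gland of female mussels (Mytilus galloprovincialis) were compared between stage 2 and stage 1 of gonad development. The samples were the female channels of 8 dual-color arrays, 4 per stage, out of 32 channels on the 16 arrays of the series. On each array the RNA of 1 wild female and 1 wild male of the same stage, each extracted from a single individual, was labeled with different dyes and hybridized together. The cDNA array carried 1920 clone identifiers, each spotted 2 times, and every one entered the comparison. Stage 1 females were collected in November and stage 2 females in January from the same Tunisian lagoon, so that the effects of stage and of month cannot be told apart. The labels and the study's methods assign the January animals to different years. Females carried Cy5 in stage 1 replicates 1 and 3 and in stage 2 replicates 3 and 4, and Cy3 in stage 1 replicates 2 and 4 and in stage 2 replicates 1 and 2, so that each dye was used on 2 arrays per stage. Males of the same arrays, which carried the other dye, are given beside the females.

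The digestive gland of bivalves secretes digestive enzymes, takes up food particles within its cells and stores reserves. In mussels the gonad develops mainly in the mantle through a yearly cycle, and reserves held in other tissues are drawn on while gametes form. A cDNA array of this kind reports the relative abundance of the mRNA that binds each clone, so that fewer cells of a type and less RNA per cell cannot be told apart. No file at hand links a clone to a gene or a sequence. Clones are therefore given by their array identifiers, and the markers of the gland or of other tissues could not be checked. The clone identifiers outnumber the independent mussel sequences that the study counts on the array. Whether the surplus repeats transcripts or holds no mussel cDNA is not stated in the sources used here.

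Levels are log2 signals, normalized within and between arrays, and a difference is stage 2 minus stage 1 on that scale. A clone is called where its limma p, from a model with a term for the dye, stays under 0.05 after Benjamini-Hochberg adjustment over the 1920 clones. In females 251 clones were called, 13.1% of those tested. Of these, 147 were higher at stage 2 (7.66%) and 104 were lower (5.42%). The higher clones had a median difference of 1.08, which is 2.11-fold, and ranged from 0.44 to 3.16. The lower clones had a median of -1.01, which is 2.02-fold, and ranged from -3.40 to -0.45. Among the called clones 85 were more than 2-fold higher and 53 more than 2-fold lower, and 12 and 9 exceeded 4-fold. The median difference over all clones was -0.04, with a median standard error of 0.193. The 4 stage 2 values did not overlap the 4 stage 1 values in 382 clones (19.9%), of which 214 were higher (11.1%) and 168 lower (8.75%). Among the called clones this was so for 141 of 147 and 101 of 104, which follows largely from the call, since both use the same values.

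The count of called clones depended on single arrays and on the criterion. Leaving out stage 1 replicate 2, whose female signal correlated least with the other stage 1 females, raised it to 326. Leaving out stage 2 replicate 1, 2, 3 or 4 lowered it to 140, 130, 135 or 143. The study's criterion, a positive B statistic (which weighs in log odds whether a clone changed), left 97 clones, 58 higher and 39 lower. Without normalization between arrays 213 clones were called and the split became 159 higher and 54 lower, or 74.6% higher in place of 58.6%. Within the arrays on which females carried Cy5, 2 per stage, 99 clones were called. Within those with Cy3 none was, although 371 clones had an unadjusted limma p under 0.05. The dye term itself was called for 0 clones in limma, with 134 clones at an unadjusted p under 0.05.

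**Figure D1:**
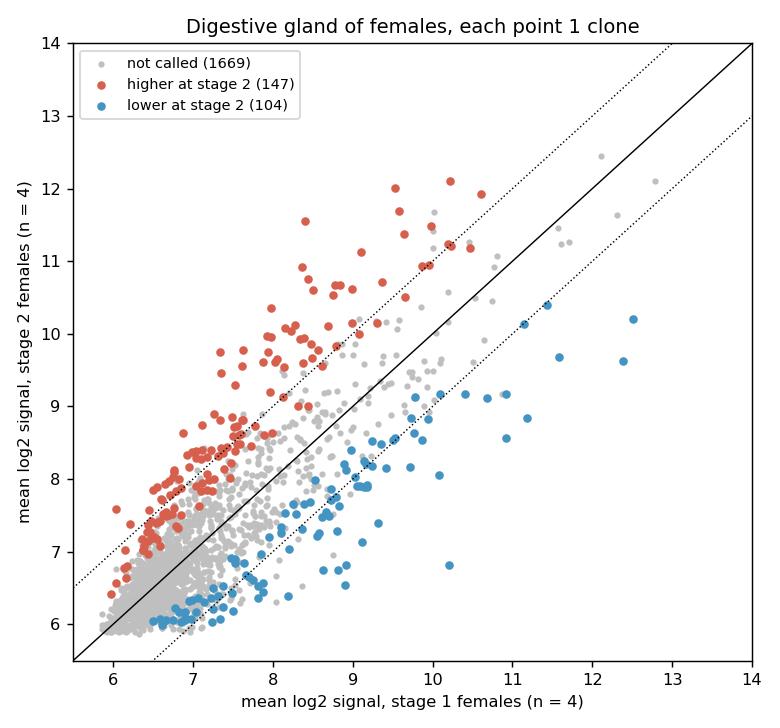
Mean log2 signal of each clone in stage 1 females (x axis) and stage 2 females (y axis), n = 4 each, where the solid line marks equal levels and the dotted lines a 2-fold difference. The 147 clones higher at stage 2 lie above the solid line and the 104 lower clones lie below it.

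Pearson correlations over the 1920 clones were 0.928 to 0.968 between the stage 2 females and 0.712 to 0.858 between the stage 1 females. Stage 1 replicate 2 correlated with the other stage 1 females at 0.712 to 0.747, and the remaining pairs of that stage at 0.838 to 0.858. Within stage 2 the pairs labeled with the same dye reached 0.965 to 0.968, and the pairs with different dyes 0.928 to 0.944. Females of different stages correlated at 0.657 to 0.817. Duplicate spots of a clone on the same array correlated at 0.951 to 0.967 in stage 2 females and at 0.780 to 0.858 in stage 1 females, so that the lower coefficients of stage 1 went with noisier spots. Relative to the noise of duplicate spots, the variance of the difference between a pair of females was 1.57 to 3.74 times at stage 2 and 1.51 to 2.84 times at stage 1. These points share the array design and the labeling, and the coefficients are descriptions.

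The share of spots above background moved with the stage in females. Spots were taken as above background where the foreground signal lay more than 2 SDs of the local background over its median. A clone was taken as above background on an array where either of its 2 spots passed. In stage 1 females 24.4% to 27.2% of clone spots were above background, and in stage 2 females 41.7% to 56.4% were, so that the ranges did not overlap. In males the ranges overlapped, at 22.6% to 34.9% and 19.8% to 40.5%. At most 1.81% of blank spots passed in the female channel. This share depends on the scatter of the background as well as on the signal. The part of this difference in the stage comparison was not tested.

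Few dim clones were called. Ordered by mean female level, 7 of the 480 dimmest clones were called, and 20, 59 and 165 in the following groups of 480. Among all 1920 clones 882 were above background in females on no array of stage 1. Of the 147 higher clones, 48 were above background in females on no array of stage 1, and 1 of these on no array of stage 2 either. For the remaining 47 the increase was estimated with a floor, at 1.00-fold to 2.51-fold with a median of 1.69-fold, and 10 of them exceeded 2-fold. The estimate sets the stage 2 mean against, on each stage 1 array, the greater of the clone's measured signal and the dimmest signal still above background. It has no error margin and is not a strict lower bound, since a measured signal that did not pass can exceed that floor. The other 99 higher clones were above background on at least 1 stage 1 array and had a median difference of 1.21. Of the 104 lower clones, 25 were above background on no stage 2 array and 12 of these at neither stage. By the same kind of estimate the other 13 were 1.37-fold to 2.71-fold lower. The 79 lower clones above background on at least 1 stage 2 array had a median of -1.07. On all 8 arrays 316 clones were above background, of which 53 were called higher and 58 lower, with median differences of 1.38 and -1.09.

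The clone with the greatest increase by the naming rule was Myt01-015H05. Its log2 signal in stage 1 females was 9.53, 5.77, 9.49 and 8.80 in replicates 1 to 4. In stage 2 females it was 11.86, 11.40, 11.68 and 11.27. Every stage 2 female lay above every stage 1 female, and replicate 2 of stage 1 lay far below its group. On that array the clone was not above background in either sex, with 5.98 in the male against 11.57 to 11.99 in the other stage 1 males. The fitted difference was 3.16 with a standard error of 0.71, or 8.91-fold (limma adjusted p = 0.0262). Without stage 1 replicate 2 it was 2.30 (limma adjusted p = 0.00266). It was 1.97 on the arrays with females in Cy5 (limma adjusted p = 0.0264) and 4.34 on those with females in Cy3, where the call was lost (limma adjusted p = 0.151). The call also ended without stage 1 replicate 3 (3.38, limma adjusted p = 0.0511) and without stage 2 replicate 1 (2.81, adjusted p = 0.0805), 2 (3.02, adjusted p = 0.0818) or 3 (3.32, adjusted p = 0.0663). Its B statistic was -1.55.

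Clone Myt01-006C06 showed the second greatest increase and varied less. In stage 1 females it measured 8.20, 7.88, 8.59 and 8.77, and in stage 2 females 11.01, 11.05, 10.88 and 10.72. The groups were 8.36 ± 0.40 and 10.92 ± 0.15 (SD, n = 4) and did not overlap. The difference was 2.55 with a standard error of 0.21, or 5.87-fold (limma adjusted p = 0.00126). The males of the same arrays measured 10.15, 10.06, 11.08 and 11.50 at stage 1 and 9.54, 8.54, 10.23 and 10.67 at stage 2. Females therefore lay below the male on every stage 1 array and above it on every stage 2 array. The difference kept its sign on each dye, at 2.41 in Cy5 (limma adjusted p = 0.0245) and 2.70 in Cy3, where it was not called (limma adjusted p = 0.102). With the sexes exchanged on the stage 2 arrays, a check described below, it was 1.38 and not called (limma adjusted p = 0.114).

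Among the clones that fell, Myt01-009E12 had the greatest decrease. Stage 1 females measured 10.38, 9.63, 9.92 and 10.92, and stage 2 females 7.29, 7.29, 6.28 and 6.38. The stages were separated by more than the spread within either, at 10.21 ± 0.56 and 6.81 ± 0.56 (SD, n = 4). The difference was -3.40 with a standard error of 0.31, or 10.6-fold lower (limma adjusted p = 0.00140). At stage 2 the clone was above background on 2 of 4 arrays in females, those with the higher values, on which females carried Cy3. It was -3.82 on the arrays with females in Cy5 (limma adjusted p = 0.0245) and -2.98 on those in Cy3 (limma adjusted p = 0.105). Males measured 8.17, 8.02, 10.83 and 10.64 at stage 1 and 6.83, 6.61, 6.19 and 6.53 at stage 2. Their difference of -2.87 did not pass the test (limma adjusted p = 0.0807), and the difference between the sexes, -0.53, did not either (limma adjusted p = 0.659).

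Clone Myt01-005F02 was the other clone named for its decrease. Stage 1 females measured 11.23, 12.79, 12.46 and 13.07, against 9.76, 9.53, 9.93 and 9.28 in stage 2 females. The groups, 12.39 ± 0.81 and 9.62 ± 0.28 (SD, n = 4), did not overlap, and the difference was -2.76 with a standard error of 0.34, or 6.79-fold lower (limma adjusted p = 0.00271). Within the dyes it was -2.24 in Cy5 (limma adjusted p = 0.0747) and -3.29 in Cy3 (limma adjusted p = 0.0884), neither of which was called. Males measured 8.59, 10.35, 9.67 and 12.14 at stage 1 and 9.58, 10.93, 10.72 and 11.13 at stage 2. The male groups overlapped. After the same exchange of the sexes the difference in the channels then taken as female was -1.80 and not called (limma adjusted p = 0.0536).

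**Figure D2:**
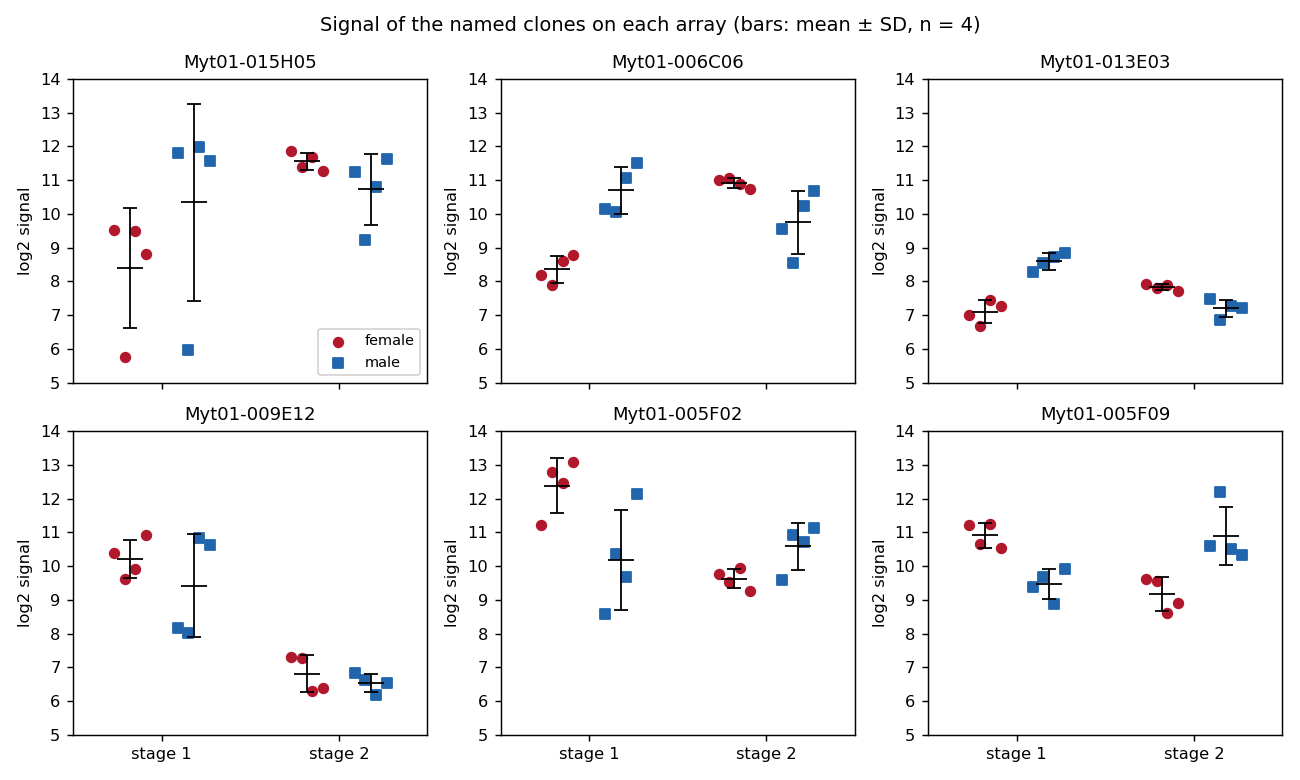
Log2 signal of 6 clones in the female (circles) and male (squares) of each array at stages 1 and 2, with the mean and SD of each group of 4 as bars. In Myt01-006C06 the females rose from 8.36 to 10.92 past the males, in Myt01-005F02 they fell from 12.39 to 9.62, and Myt01-009E12 was low in both sexes at stage 2.

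The remaining clones with large differences are given without identifiers. By the naming rule 137 of the 147 higher and 76 of the 104 lower clones qualified. The 12 greatest increases ran from 3.16 to 2.03, with limma adjusted p from 0.00126 to 0.0352, and 8 of these clones were above background in females on all 8 arrays. The male difference of these 12 clones ranged from -1.25 to 2.18 and had the sign of the female difference in 6. The 12 greatest decreases ran from -3.40 to -1.89, with limma adjusted p from 0.00140 to 0.0232, and 9 of the clones were above background on all 8 arrays. Their male difference ranged from -2.87 to 1.58 and had the female sign in 5. In each direction 1 of the 12 clones was also called in males, where 0.677% of all clones were called higher and 1.82% lower. Over all 1920 clones 984 male differences were above 0 and 936 below.

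Males were compared between the stages in the same way. In males 48 clones were called, 2.5% of those tested, 13 higher (0.677%) and 35 lower (1.82%), with 351 clones at an unadjusted limma p under 0.05. This count did not hold when arrays were left out. Of the stage 1 arrays, omitting replicate 1, 3 or 4 left 0 clones and omitting replicate 2 left 2. Of the stage 2 arrays, omitting replicate 3 or 4 left 0, and omitting replicate 1 or 2 left 19 or 7. In the fits that left 0 clones, 296 to 363 had an unadjusted limma p under 0.05. Without normalization between arrays the male split turned to 15 higher and 5 lower. A larger count in females than in males does not show that the sexes differed, so the stage difference of the within-array ratio of female over male was tested clone by clone.

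This sex by stage difference was called for 114 clones, 5.94% of those tested. The female difference exceeded the male one for 76 clones (3.96%) and lay below it for 38 (1.98%). Of the 76 clones, 56 were called higher in females, 17 were called lower in males and 10 were both, which left 13 called in neither sex alone. Over all clones 7.66% were called higher in females and 1.82% lower in males. The median log2 ratio of female over male of the 76 went from -1.28 at stage 1 to 0.64 at stage 2. Of the 38 clones, 12 were called lower in females and 1 higher in males, against 5.42% and 0.677% of all clones. The sexes taken alone gave no call for 25 of the 38, and their median ratio went from 0.43 to -0.63. These counts and ratios follow largely from the choice of the clones, since the call uses the same values. The count of 114 fell to 66 when replicate 3 of either stage was left out.

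The sex by stage difference rests on the sex labels of the stage 2 arrays. Over all clones the ratios of female over male at stage 2 ran opposite to those at stage 1, with all 16 correlations between an array of one stage and an array of the other below 0 (-0.574 to -0.0598) and a correlation of -0.589 between the stage means. Within stage 1 the arrays correlated at 0.324 to 0.635, and within stage 2 at -0.077 to 0.673. When the sexes were exchanged on the 4 stage 2 arrays, 42 clones were called in the channels then taken as female, 16 higher and 26 lower. Of the 147 higher clones 8 were still called, and of the 104 lower clones 26, while 144 and 103 kept their sign, with median differences of 0.70 and -0.84. The stage 1 females, whose values chose these clones, stayed in that comparison, so the kept signs follow in part from the choice. The female and male of a stage 2 array also correlated at 0.873 to 0.947. With the exchange the sex by stage difference was called for 0 clones in limma, with 189 at an unadjusted p under 0.05.

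The clones higher in females at stage 2 were split by the call of the sex by stage difference. Since that call uses the male values, the male differences within each group follow largely from the split and are given as a description. The 56 clones with a called sex by stage difference had medians of 7.78 in stage 1 females and 9.19 in stage 1 males, and of 9.55 and 8.76 at stage 2. The median of these clones was 7.64 to 8.04 on the arrays of stage 1 females and 9.38 to 9.69 on those of stage 2 females. In males 48 of the 56 differences were below 0, with a median of -0.93, and 10 were called lower. The other 91 higher clones had medians of 7.10 and 7.42 in stage 1 females and males, and of 8.13 and 7.92 at stage 2. Their median male difference was 0.46, with 81 above 0, and 5 were called higher in males. Over all 1920 clones 984 male differences were above 0 and 936 below. In males 13 of all clones were called higher (0.677%) and 35 lower (1.82%).

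Of the 104 clones lower in females at stage 2, 87 had a male difference below 0 and 16 were called lower in males. Over all 1920 clones 936 male differences were below 0 and 35 were called lower (1.82%). The same split, with the same limit, left 92 clones with no called sex by stage difference. Their medians were 8.33 and 8.11 in stage 1 females and males and 7.17 and 7.28 at stage 2. The median male difference of the 92 was -0.69, and 83 were below 0. The 12 clones with a called sex by stage difference had medians of 9.28 and 8.29 in females and of 8.79 and 8.84 in males, with a median male difference of 0.10. A p that misses the threshold does not show that the sexes changed alike.

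**Figure D3:**
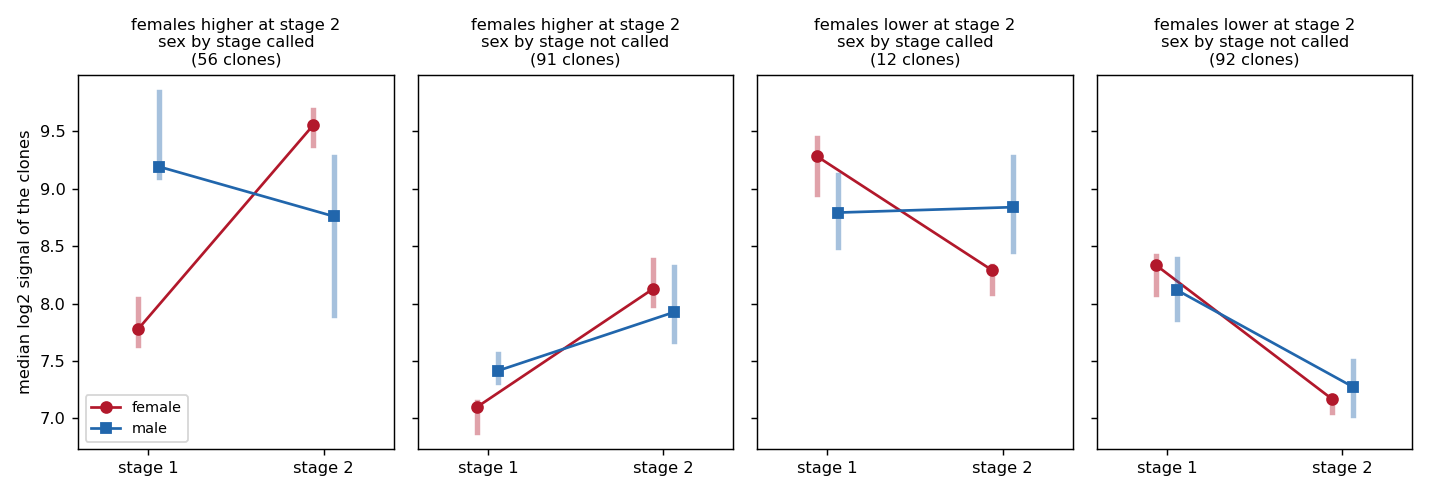
Median log2 signal of the clones called in females, for females (circles) and males (squares) at each stage, split by the direction in females and by the call of the sex by stage difference, with bars for the range of the 4 array medians. In the 56 clones of the first panel females moved from 7.78 to 9.55 and males from 9.19 to 8.76, and in the 92 clones of the last panel both sexes were lower at stage 2.

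By the test of the difference between the sexes, 3 of the clones named above were called, against 5.94% of all clones. The clones had been named for their female differences, which enter the same ratio. The female minus male difference was 3.51 for Myt01-006C06, with a standard error of 0.43 (limma adjusted p = 0.00697). It was 2.77 for Myt01-015H05 (limma adjusted p = 0.0338) and -3.17 for Myt01-005F02 (limma adjusted p = 0.0146). The male differences of these clones were -0.95, 0.39 and 0.41, and none was called. The 0.39 of Myt01-015H05 includes stage 1 replicate 2, where the clone was not above background in either sex. That male measured 5.98, against 11.57 to 11.99 in the other stage 1 males. Stage 2 males measured 11.24, 9.24, 10.81 and 11.62, so the sign of the 0.39 depends on that array.

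The clone with the smallest adjusted p among those whose female difference exceeded the male one was Myt01-013E03. Females measured 6.99, 6.67, 7.45 and 7.28 at stage 1 and 7.91, 7.80, 7.90 and 7.71 at stage 2. Males of the same arrays measured 8.27, 8.54, 8.71 and 8.85, and 7.48, 6.85, 7.26 and 7.21. Females were low and males high on every stage 1 array, and the order was reversed on every stage 2 array. The female difference was 0.73 (limma adjusted p = 0.0390), the male one -1.40 (limma adjusted p = 0.0302), and the difference between them 2.13 with a standard error of 0.18 (limma adjusted p = 0.00525). The clone was above background on 1 of 4 arrays in stage 1 females and on 1 of 4 in stage 2 males. After the exchange of the sexes on the stage 2 arrays its sex by stage difference was 0.87 and not called (limma adjusted p = 0.262).

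In the other direction the clone was Myt01-005F09. Females measured 11.21, 10.67, 11.26 and 10.54 at stage 1 and 9.61, 9.57, 8.62 and 8.90 at stage 2. Males measured 9.39, 9.69, 8.87 and 9.93 at stage 1 and 10.59, 12.19, 10.50 and 10.34 at stage 2. Neither sex overlapped between the stages, and females went down where males went up. The female difference was -1.74 (limma adjusted p = 0.00916), the male one 1.44 (limma adjusted p = 0.0725), and the difference between them -3.18 with a standard error of 0.40 (limma adjusted p = 0.00697). It was above background in both sexes on all 8 arrays.

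The called clones were not spread evenly over the clone plates, which are given by the number in each identifier and hold 96 clones each. On plates 1 to 9 there were 42 clones called higher and 80 called lower in females, among 864. On plates 10 to 15 there were 80 higher and 6 lower, among 576. Of these plates 11, 12 and 14, picked here for having 0 lower clones, held 40 higher among 288. Over all clones 7.66% were called higher and 5.42% lower. Plate 6, which lies in the first range, held 12 higher and 9 lower clones. Plates 3 and 4 held 1 and 2 higher clones against 10 and 14 lower ones. The median female difference over all clones, called or not, was -0.16 on plates 1 to 9 and 0.12 on plates 10 to 15. The same medians in males were -0.02 and 0.03. Plate 18 held 14 higher and 2 lower clones, and plate 20 held none. On plate 20 no clone was above background in females on at least 4 of the 8 arrays. On plates 19 and 20 together, 21 of 192 clones were. These are descriptions without a test. Counts by single plate were planned, and the ranges of plates were not part of the plan. The array was built from cDNA libraries of single tissues, and the sources used here do not state which library filled which plate.

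Position on the slide was described in the same way, since the clones of a plate are spread over the print blocks. Blocks 1 to 4 held 49 higher and 8 lower clones among 480, and blocks 5 to 16 held 98 and 96 among 1440. The excess of higher clones on plates 10 to 15 stood within both areas, and the excess of lower clones on plates 1 to 9 stood only in blocks 5 to 16. In blocks 1 to 4, plates 10 to 15 held 27 higher and 0 lower clones and plates 1 to 9 held 11 and 6. In blocks 5 to 16 the counts were 53 and 6 on plates 10 to 15 and 31 and 74 on plates 1 to 9. The ranges of blocks were not part of the plan either. The part of the print position in the called differences was not tested.

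**Figure D4:**
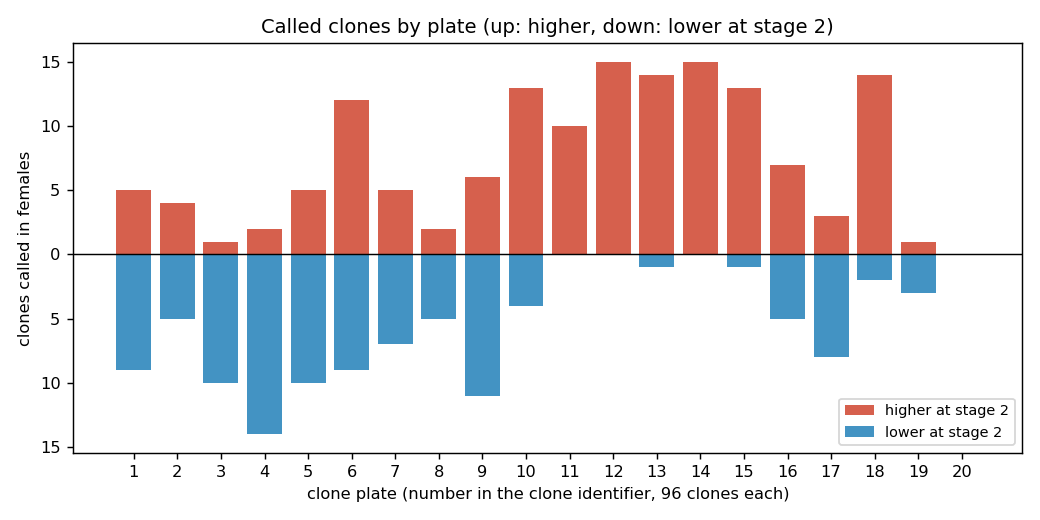
Number of clones called in females on each clone plate, with clones higher at stage 2 drawn upward and clones lower at stage 2 drawn downward. Plates 11, 12 and 14 held 10, 15 and 15 higher clones and 0 lower ones, whereas plates 3 and 4 held 10 and 14 lower ones.

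Females of stages 3 and 4 were set beside these values without a test, after all 16 arrays had been normalized together. Of stage 4, replicates 2 and 4 differed less than duplicate spots do and were averaged into 1 sample, which left n = 3 there. Since the clones were chosen for a difference between stages 1 and 2, only the later stages add information. The 147 higher clones had medians of 7.32, 8.39, 7.20 and 7.41 in the order of the stages. By clone, 85 lay nearer to their stage 1 mean than to their stage 2 mean at stage 3, and 91 at stage 4. The 104 lower clones had medians of 8.50, 7.25, 7.78 and 7.77, and 54 of them lay nearer to stage 2 at stage 3 and 58 at stage 4.

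The named clones followed different courses. Myt01-006C06 averaged 8.30, 10.85, 6.25 and 6.83 at stages 1 to 4, and its stage 2 females lay above every other female. Myt01-015H05 likewise was highest at stage 2, with means of 8.35, 11.65, 6.87 and 7.81. Myt01-009E12 was high at stage 1 only among these samples, with means of 10.15, 6.78, 6.68 and 6.55. Myt01-005F02 averaged 12.45, 9.56, 10.50 and 10.27. For Myt01-005F09 the mean fell from 10.86 to 9.11 and was 11.17 at stage 3 and 10.79 at stage 4, where the samples ranged from 9.59 to 12.65.

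**Figure D5:**
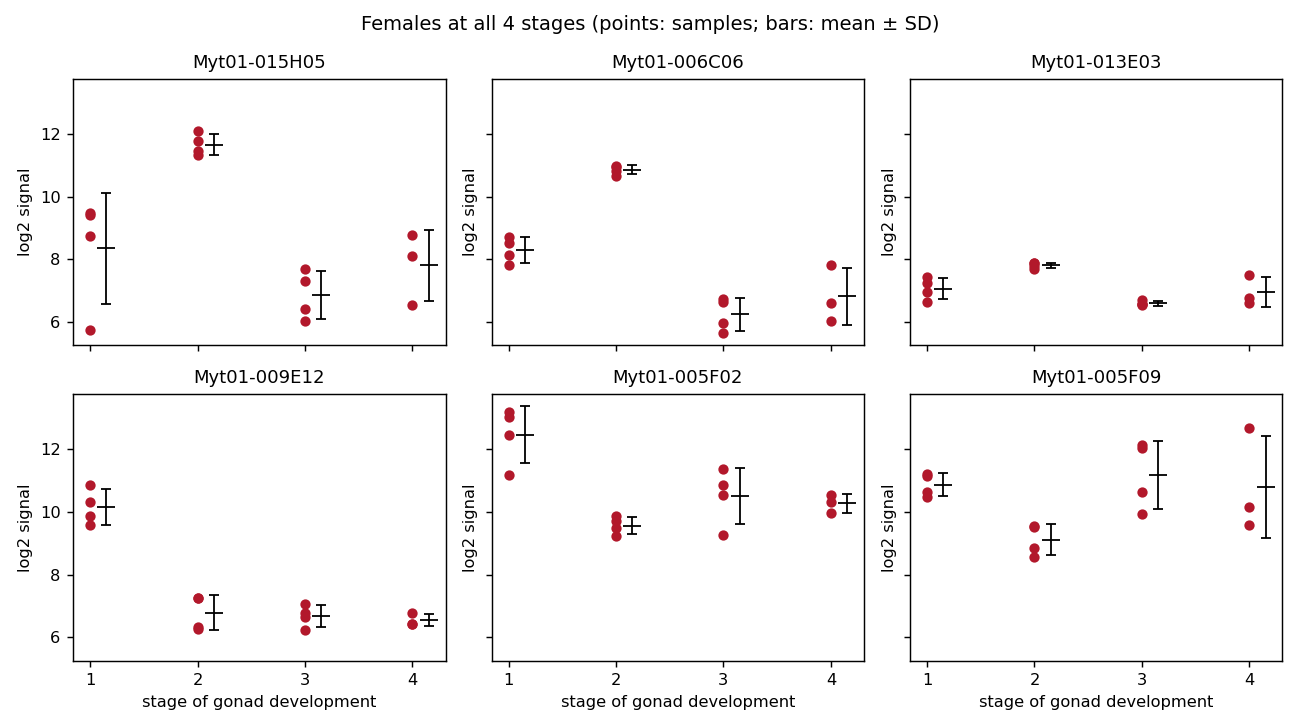
Log2 signal of the 6 named clones in single females at stages 1 to 4 of gonad development (points) with the mean and SD of each stage (bars), with 3 samples at stage 4 and 4 at each other stage. Myt01-006C06 peaked at stage 2 with a mean of 10.85, and Myt01-009E12 stood at 10.15 at stage 1 and at 6.78, 6.68 and 6.55 on average at the later stages.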

How the data were processed

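The deposited scanner files hold, per spot, foreground and local background intensity on a linear scale in both channels, which the authors had not normalized. The deposited value table holds the authors' log2 ratio per spot. It correlated with the female over male ratio computed here at 0.997 to 1.00 on the 8 arrays, with column medians of -0.0207 to 0.0100, and was used as an alternative. The submitters' processing notes name limma, with no version in the sources used here.

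From the intensity, background was corrected by normexp (offset 50), arrays were normalized by loess, with 608 blank and 112 alignment spots at weight 0, and by Aquantile between arrays, and the 2 spots of a clone were averaged (limma 3.58.1, R 4.3.3). The separate-channel model held stage and dye, which left 5 residual degrees of freedom. Tests were two-sided. Dim clones were kept, no spot was saturated, and the number of arrays limits precision. The 12 pairs of arrays within stages 1 and 2 differed by more than the noise of duplicate spots, and none was counted as 1 sample. The labels describe single individuals per replicate.

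Clones named were those with the 2 largest differences each way among called clones whose stages did not overlap and that were above background on at least 3 of 4 arrays of the brighter stage, and the smallest adjusted p each way for the sex by stage difference, with the same sign on every array. Gene and marker lists were not tested, since clones are not paired with genes. Comparisons, lists and rules were chosen with earlier results of these data known. The fit was tested on simulated data.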

Additional observations from a re-analysis of the deposited data

Results flagged for a closer look

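In 24 groups of 4 samples of the named clones, 2 held a sample far from the others by Dixon's test, where chance gives about 1 group in 20. Myt01-015H05 measured 5.98 in the male of stage 1 replicate 2, against 11.57 to 11.99 in the other stage 1 males. Myt01-005F09 measured 12.19 in the male of stage 2 replicate 2, against 10.34 to 10.59 in the other stage 2 males, and without that array its sex by stage difference was -2.97 (limma adjusted p = 0.0161).

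For 5 of the 6 named clones the stage difference of females differed from that of males by the limma test of the difference itself. It was 2.77 for Myt01-015H05 (adjusted p = 0.0338), 3.51 for Myt01-006C06 (adjusted p = 0.00697) and -3.17 for Myt01-005F02 (adjusted p = 0.0146). It was 2.13 for Myt01-013E03 (adjusted p = 0.00525) and -3.18 for Myt01-005F09 (adjusted p = 0.00697). Myt01-013E03 and Myt01-005F09 were named for this test, and the others for their female differences, which enter the same ratio. The count of named clones therefore follows largely from the choice. Over all 1920 clones 114 were called (5.94%). With the sexes exchanged on the stage 2 arrays no clone was called for the sex by stage difference.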

How the results depend on the processing

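The count of 251 clones in females stayed within 1.5 times under 16 of 26 alternatives. It was 399 with spots kept apart, 97 with a B statistic over 0, 99 with females in Cy5 only, 0 with females in Cy3 only and 42 with the sexes exchanged on the stage 2 arrays, and 130 to 326 with 1 array left out. In every fit that left out 1 array, 61 of the 147 higher and 50 of the 104 lower clones were still called. The replicate number was also entered as a block, which gave 101 clones in females, 0 in males (343 at an unadjusted limma p under 0.05) and 75 for the sex by stage difference. The numbers did not pair the samples: deviations of same-numbered females correlated at 0.0559, -0.104, 0.0378 and -0.0929, and 1 of the 4 numbers correlated best with itself. The count of 48 clones in males was 16 without background correction, 0 with plain subtraction (341 at an unadjusted limma p under 0.05), 93 with median centering, 20 without normalization between arrays, 78 without dim clones, 99 with both sexes in 1 fit, 197 with spots kept apart, 31 with a B statistic over 0, 104 at an adjusted p under 0.10, 7 and 0 on the arrays with females in Cy5 and in Cy3 (278 at an unadjusted p under 0.05 in the latter), 87 with the sexes exchanged, and 0 to 19 with 1 array left out. The count of 114 for the sex by stage difference was 65 without background correction, 211 with median centering, 279 with spots kept apart, 69 with a B statistic over 0, 205 at an adjusted p under 0.10, 52 with females in Cy3 only, 0 with the sexes exchanged, and 66 to 123 with 1 array left out. With the sexes exchanged the difference of Myt01-005F09 changed sign to 0.28 (limma adjusted p = 0.837). In females the difference ranged over the 26 alternatives from 1.97 to 4.97 for Myt01-015H05, whose call was lost in 10, and from 1.38 to 2.92 for Myt01-006C06, lost in 2. It ranged from -4.63 to -2.18 for Myt01-009E12, lost in 1, and from -3.29 to -1.80 for Myt01-005F02, lost in 3. The exchange of the sexes was among the alternatives that lost the call for Myt01-015H05, Myt01-006C06 and Myt01-005F02. For Myt01-009E12 the call was kept under the exchange, at -3.67 (limma adjusted p = 0.00433). The causes were not tested.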
